A study of Mus musculus with 8 samples.

Results

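Genes that laboratories commonly use as references for quantitative PCR, here *Sdha*, *Canx*, *Gapdh*, *Actb*, *Hprt*, *Tbp*, *B2m* and *Ywhaz*, were examined in wild-type mouse embryos for how little their signal varied. They were chosen by symbol, not by their values, and are 8 of the 20660 genes that array probes could be matched to through their RefSeq transcript. A reference gene is the yardstick of a PCR assay: the amount of any other transcript is given relative to it, so a change in the reference gene is read as an opposite change in everything else. The usual choices serve functions that every cell needs, such as glycolysis, the cytoskeleton, respiration, nucleotide salvage and transcription, but none is steady in every tissue, so their spread is measured again in each new setting. For its own PCR assays of foetal gonads and testis somatic cells the study used *Canx* and *Sdha* among its references.

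Gene expression was measured in 8 Eed wt/wt embryos at E8.5, each with its own one-colour Agilent 8x60K array. Mothers were wild-type. The labels put both parents on a mixed C57bl6/129 background, whereas a legend of the study names C57BL/6J for the mothers. In the wt group (4 embryos, WT father in the figures) the father was Eed wt/wt. In the het group (4 embryos, HET father) it was Eed hypo/wt and carried 1 copy of the Eed l7Rn5-1989SB allele, a point mutation that lowers the function of the Polycomb protein EED. Each group held 2 female and 2 male embryos, matched for stage. The labels give neither litter nor sire for an embryo, and the legends of the study do not give the same number of sires throughout, so embryos of a group may be littermates and p-values measure only the spread between these 8 embryos. In the wt group 3 of the 4 embryos carry codes with the same first part, in the het group none do, and embryos that share it were correlated (0.54, estimated by limma over all tested probes). The 4 arrays of each group lay on a slide of their own, and slide and father's genotype therefore cannot be told apart.

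Signal is given throughout on the log2 scale, as the processed intensity of a probe relative to the 75th percentile of its array, so that 0 is the 75th percentile and a difference of 1 is 2-fold. A tested probe was well above background on at least 4 arrays and not among the dimmest 20%, which left 33093 of 55681 probes. Between 29203 and 39530 probes per array were well above background. The arrays of wt replicate 1 and het replicate 3 stood apart from the rest, with 39530 and 38878 such probes against at most 35486 on the other 6, and the spread of the 8 genes is therefore also given without this pair of arrays. The embryo label was borne out by the 7 markers of the embryo proper, which were well above background on all 8 arrays. So were the 3 primitive erythroid and the 4 yolk sac endoderm markers. Of the 3 trophoblast and decidua markers on the array, 2 (*Prl8a2* and *Prl3d1*) were too, so the samples were not shown to be free of such tissue.

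The 8 genes were represented by 17 probes: 7 for *Gapdh*, 3 for *Ywhaz*, 2 for *Tbp* and 1 for each of the other 5. All 17 were well above background on all 8 arrays, all passed the filter, and none was saturated on any array. The brightest probe stands for a gene with several. *Actb* came nearest to the scanner's limit, at up to 59.2% of the saturation value, followed by the brightest *Gapdh* probe at up to 51.1%. *Gapdh* and *Actb* have many near-identical processed copies in the mouse genome, and a probe for either cannot separate the gene from such copies, so their values are uncertain in this respect.

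For *Tbp* and *B2m*, the genes of lowest and highest spread, the bases before the annotated start of the transcript are shown, with those of *Canx* and *Sdha*, which the study used as PCR references. The sequences are the 150 bases upstream of the start in RefSeq (GRCm38.p6), 5′ to 3′ on the strand of the gene. Capitals mark the 3 motifs searched on both strands, namely the TATA box spelled TATAAA, the CCAAT box by the letters of its name and the GC box spelled GGGCGG, none of which overlapped another.
Tbp (chr17:15499738-15499887, plus strand): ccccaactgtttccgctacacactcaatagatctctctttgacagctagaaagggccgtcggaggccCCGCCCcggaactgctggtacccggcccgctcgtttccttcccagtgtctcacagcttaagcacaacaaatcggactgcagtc
B2m (chr2:122147537-122147686, plus strand): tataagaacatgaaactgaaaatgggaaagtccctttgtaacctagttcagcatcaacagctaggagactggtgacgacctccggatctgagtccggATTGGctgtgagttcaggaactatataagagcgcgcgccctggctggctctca
Canx (chr11:50325674-50325823, minus strand): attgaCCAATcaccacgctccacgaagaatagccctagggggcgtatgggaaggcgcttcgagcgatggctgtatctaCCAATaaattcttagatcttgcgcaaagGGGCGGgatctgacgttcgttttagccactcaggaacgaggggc
Sdha (chr13:74350241-74350390, minus strand): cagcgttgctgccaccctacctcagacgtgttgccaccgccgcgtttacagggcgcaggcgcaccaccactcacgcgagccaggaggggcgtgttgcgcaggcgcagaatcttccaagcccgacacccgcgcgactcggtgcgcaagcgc

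In these windows *Tbp* held a GC box on the opposite strand, *B2m* a CCAAT box on the opposite strand, *Canx* 2 CCAAT boxes and a GC box, and *Sdha* none of the 3 motifs. Among all 32851 RefSeq windows of the same length, 7.57% held the TATA box, 24.5% the CCAAT box and 28.6% the GC box. A match is a description of the letters only. RefSeq entries were also found for *Gapdh* and *Hprt*. No sequence is given for *Actb* and *Ywhaz*.

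Of the 8 genes, 6 varied less between embryos than the median of all tested probes, and *B2m* and *Ywhaz* varied more. The SD of the log2 signal over the 8 embryos was 0.05 for *Tbp*, 0.09 for *Hprt* and *Sdha*, 0.11 for *Gapdh* and *Actb*, 0.12 for *Canx*, 0.28 for *Ywhaz* and 0.44 for *B2m*. Without the pair of arrays that stood apart it was 0.03 for *Tbp*, 0.11 for *Gapdh*, 0.12 for *Canx* and 0.24 for *Ywhaz*, and it is given for the other genes with their values. The median of the 8 SDs was 0.11, against 0.22 over all 33093 tested probes, and 6 of the 8 genes lay below that median of all probes. With arrays shifted by their median in place of the 75th percentile, these medians were 0.45 and 0.47, and 5 of the 8 genes lay below. The lowest SD was then that of *Ywhaz* (0.31), and with quantile normalization, with or without normexp, it was that of *Actb* (0.03 and 0.05), so the place of *Tbp* depended on the scaling, while *B2m* had the highest SD in each.

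**Figure D1:**
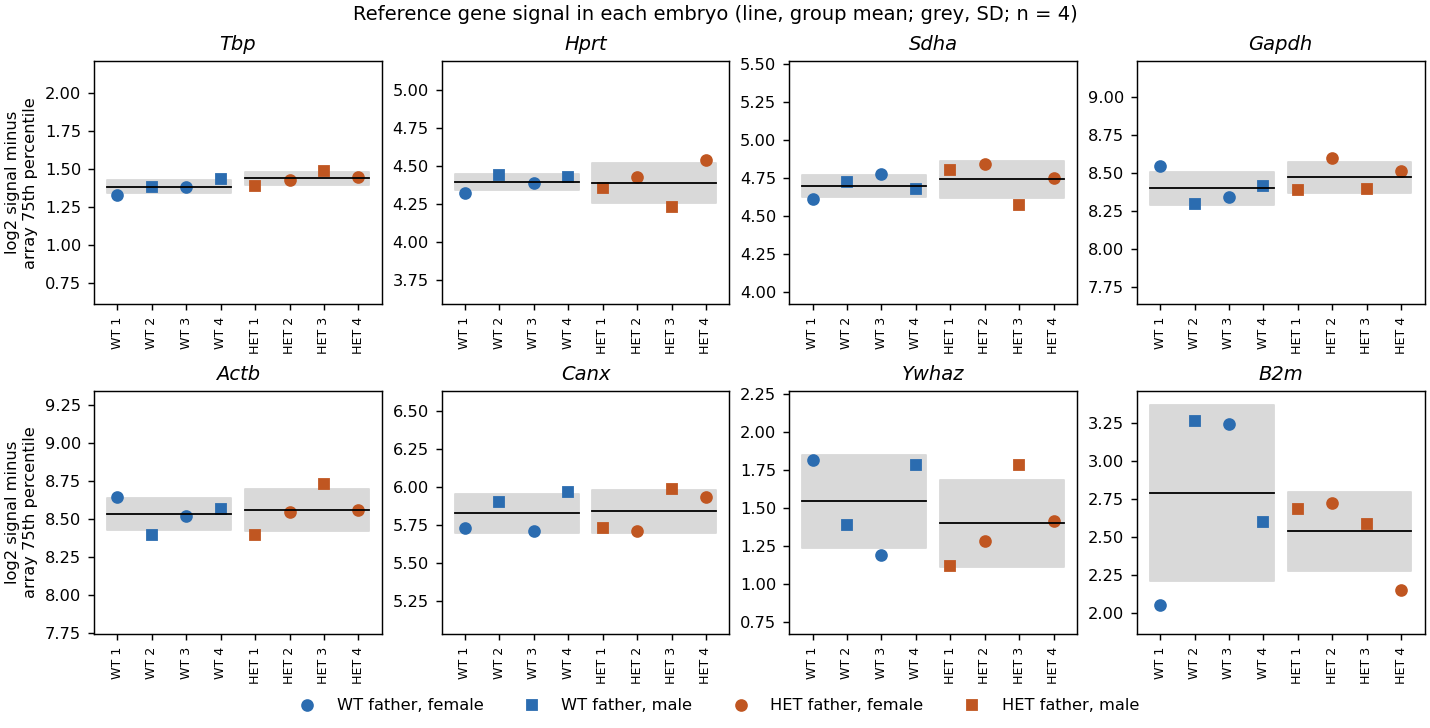
Log2 signal (array 75th percentile = 0) of each reference gene in each embryo, with genes in order of their SD and every panel spanning the same range; circles are female and squares male embryos, lines are group means and grey bands the SD (n = 4 per group). *Tbp* lay within 1.33 to 1.49, whereas *B2m* ran from 2.05 to 3.26, and the groups of fathers overlapped for all 8 genes.

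*Tbp* encodes the TATA-binding protein, which helps to place RNA polymerase at promoters. Its signal was 1.33, 1.38, 1.38 and 1.44 in the wt group (replicates 1 to 4) and 1.39, 1.42, 1.49 and 1.45 in the het group. The highest embryo was 1.11-fold above the lowest, and the groups overlapped. Its SD stood at the 1.2 percentile of all tested probes.

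*Hprt*, on the X chromosome, encodes the enzyme that salvages hypoxanthine and guanine for purine nucleotides. It gave 4.32, 4.44, 4.39 and 4.43 in the wt group and 4.35, 4.43, 4.23 and 4.54 in the het group. The lowest and the highest embryo, 1.24-fold apart, both belonged to the het group, one of them on an array that stood apart. *Sdha* encodes the flavoprotein subunit of succinate dehydrogenase, which serves both the citric acid cycle and the respiratory chain. Its signal was 4.62, 4.72, 4.78 and 4.68 in the wt group and 4.81, 4.84, 4.57 and 4.75 in the het group. The 2 lowest embryos of *Sdha*, and likewise of *Hprt*, were those on the arrays that stood apart, and without them the SD fell to 0.06 for either gene.

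*Gapdh*, a glycolytic enzyme, gave 8.55, 8.30, 8.34 and 8.41 in the wt group and 8.39, 8.60, 8.39 and 8.51 in the het group. Highest and lowest embryos were 1.23-fold apart. *Actb*, the cytoplasmic beta-actin of the cytoskeleton, gave 8.65, 8.39, 8.52 and 8.57 and then 8.39, 8.55, 8.73 and 8.56. Its 2 highest embryos were the ones on the arrays that stood apart, and its SD was 0.08 without them. *Canx*, the chaperone calnexin of the endoplasmic reticulum, gave 5.73, 5.90, 5.71 and 5.97 in the wt group and 5.73, 5.71, 5.99 and 5.94 in the het group. The embryos of *Canx* fell into 4 at or below 5.73 and 4 at or above 5.90, and either father's group held 2 of each.

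*Ywhaz* encodes an adaptor protein that binds phosphorylated partners in many signalling pathways. It gave 1.81, 1.39, 1.19 and 1.78 in the wt group and 1.11, 1.28, 1.78 and 1.41 in the het group, a range of 1.62-fold that both groups nearly spanned. *B2m*, the light chain of the MHC class I molecules that present peptides at the cell surface, gave 2.05, 3.26, 3.24 and 2.60 in the wt group and 2.68, 2.72, 2.59 and 2.15 in the het group. Within the wt group alone *B2m* spanned its whole range of 2.31-fold. Without the pair of arrays that stood apart its SD was 0.42.

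The *B2m* probe is printed in 2 spots, whose log2 signals on an array had a median SD of 0.01 (highest 0.03), against 0.44 between embryos. Over the 10 spots of the *Hprt* probe the median SD within an array was 0.04, against 0.09 between embryos, and over 399 probes with 10 spots the median SD was 0.06. Spots on an array share its labelling and hybridisation, whose error these values leave out. Markers of other cells were set beside *B2m*, since leukocytes carry much MHC class I. The log2 of the summed signal of the 4 leukocyte markers ran from 1.16 to 1.29 in the wt group. In the het group it ran from 1.09 to 1.43. Only 1 of the 4, *H2-Ab1*, was above background on all arrays, with *Cd74* on 6, *Ptprc* on 2 and *Lyz2* on no array. *H2-Ab1* had a mean of 1.20 (SD 0.15) and *Cd74* one of -4.43 (SD 1.13), so most of the sum was the signal of *H2-Ab1*. The same sum over the 3 trophoblast and decidua markers on the array ran from 2.24 to 3.03 in the wt group. In the het group it ran from -1.74 to 1.42, without overlap, with *Tpbpa* above background on no array. *Prl8a2* had means of 2.20 and -0.26 (log2 difference -2.46, unadjusted p = 0.0126 in limma, adjusted p 0.9998). Whether the groups differed in the amount of such tissue was not tested. The lowest and the highest *B2m* embryos, wt replicates 1 and 2, had leukocyte sums of 1.26 and 1.24 and trophoblast and decidua sums of 2.49 and 3.03. The part of such cells in the *B2m* signal was not tested, and in whole embryos fewer cells of a type and less RNA per cell cannot be told apart.

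Bright probes varied less than dim ones on these arrays, and most of the reference genes are bright. Median SD fell from 0.82 in the dimmest decile of the tested probes to 0.10 in the brightest decile, to which *Sdha*, *Canx*, *Gapdh*, *Actb* and *Hprt* belong. Only 3 of the 8, *Tbp*, *Hprt* and *Sdha*, had an SD below the median of their own decile. *Tbp* stood at the 1.75 percentile of its decile, *Hprt* at 41.1, *Sdha* at 43.5, *Gapdh* at 53.6, *Actb* at 59.9 and *Canx* at 67.3. *Ywhaz* stood at 89.97 and *B2m* at 98.0. Thus 6 of 8 genes had an SD below the median of all tested probes, but 3 of 8 below the median of probes about as bright.

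**Figure D2:**
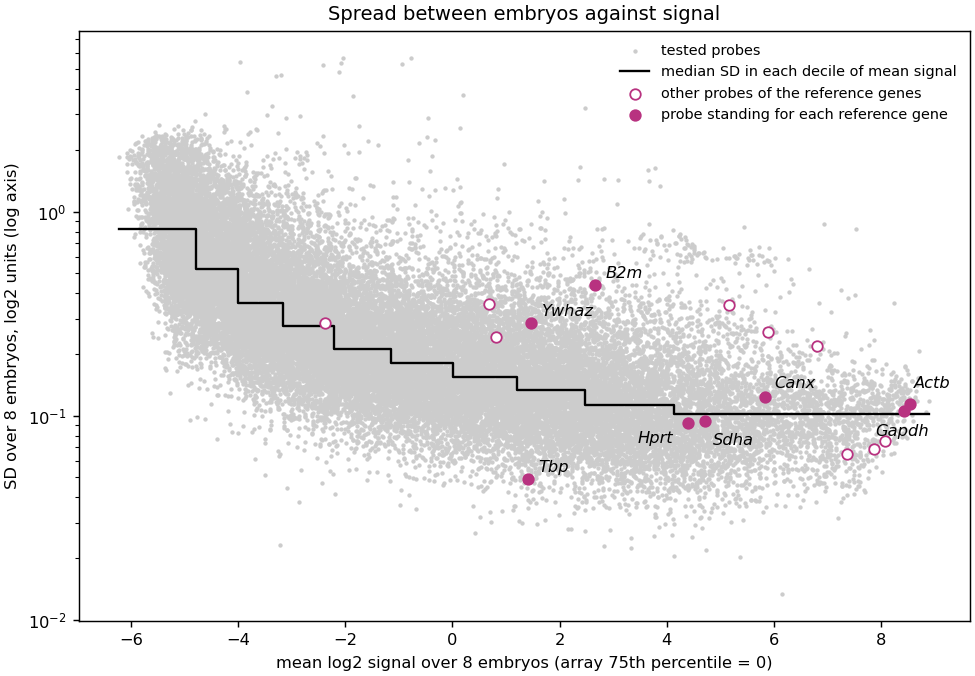
SD over the 8 embryos (log axis) against mean log2 signal of the 33093 tested probes (grey), with the probe standing for each reference gene (filled), their other probes (open) and the median SD of each decile of mean signal (black steps). *Tbp* lay well below the median of its decile, *Ywhaz* and *B2m* above it, and the other 5 close to 0.10.

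A ratio of 2 genes on the same array does not depend on how that array was scaled. For the 28 pairs of the 8 genes the SD of the log2 ratio over the embryos was computed, and a gene's mean over its 7 partners served as its ratio spread. The ratio spread was lowest for *Tbp* at 0.18 and lay between 0.20 and 0.21 for *Hprt*, *Actb*, *Canx*, *Gapdh* and *Sdha*. It was 0.34 for *Ywhaz* and 0.49 for *B2m*, and the median of the 8 was 0.21. With quantile normalization *Actb* had the lowest, 0.17 (*Tbp* 0.18), likewise with normexp in addition, 0.16 (*Tbp* 0.17), and after averaging each gene over its probes it was *Ywhaz*, 0.17 (*Tbp* 0.24). With *B2m* left out, the ratio spreads of the other 7 were 0.14 for *Tbp* to 0.29 for *Ywhaz*.

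*Sdha* and *Hprt* were the steadiest pair (SD of the log2 ratio 0.08), and *Canx* with *Tbp* came next at 0.10. *Sdha* with *Canx*, both of which the study used as PCR references, had 0.19, more than the SD of either gene by itself. The 2 genes lay on opposite sides of their means in 5 of 8 embryos. The widest pair was *B2m* with *Ywhaz* at 0.64. Without the pair of arrays that stood apart *Hprt* with *Tbp* was the steadiest pair, at 0.05, and *Sdha* with *Hprt* had 0.10 and *Sdha* with *Canx* 0.18. The ratio spread was then 0.15 for *Tbp*, 0.16 for *Hprt* and *Actb*, 0.18 for *Sdha*, 0.19 for *Gapdh* and *Canx*, 0.27 for *Ywhaz* and 0.47 for *B2m*.

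**Figure D3:**
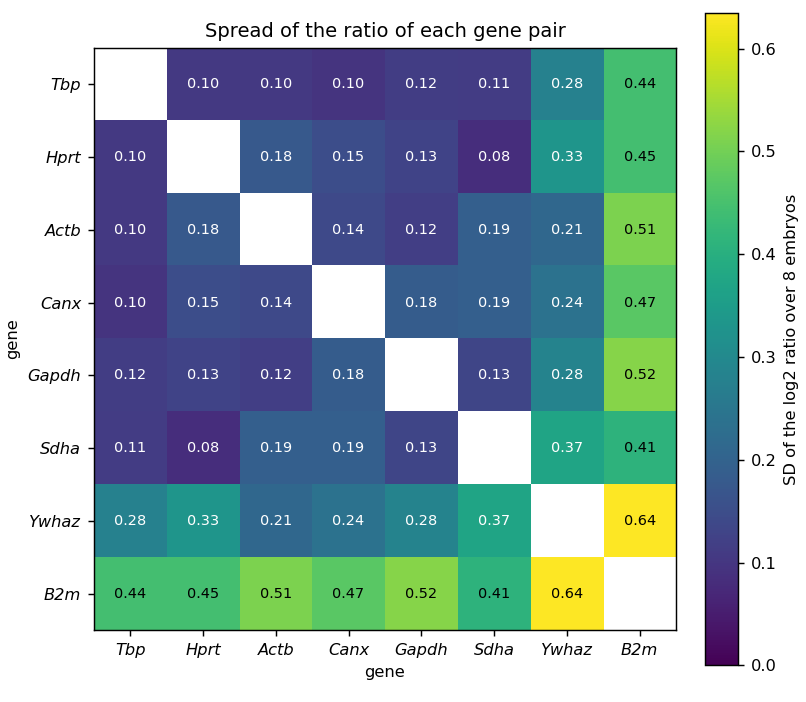
SD over the 8 embryos of the log2 ratio of each pair of reference genes, with genes in order of their mean over the 7 partners. The 15 pairs among the first 6 genes lay between 0.08 and 0.19, and every pair with *B2m* at 0.41 or above.

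Probes of the same gene did not always tell the same story. Of the 7 *Gapdh* probes, all designed on the same RefSeq transcript, the 4 brightest had SDs of 0.06 to 0.11, and the 3 dimmest had 0.22, 0.26 and 0.35. The dimmest, A_55_P1994258, gave 5.09, 5.31, 5.41 and 5.11 in the wt group and 5.35, 5.42, 4.36 and 5.30 in the het group, and 1 embryo, het replicate 3, deviated by -0.81 from the probe's mean. The other 2 of these 3 probes, A_55_P1965725 and A_55_P2088912, deviated by -0.59 and -0.44 from their means in the same embryo, whereas the 4 brightest deviated by -0.05 to 0.01. The array of that embryo is one of the pair that stood apart, and without the pair the SDs of these 3 probes were 0.11, 0.08 and 0.13. Between 2 *Gapdh* probes the SD of the log2 difference was 0.06 to 0.35 (median of 21 pairs 0.22). For the 2 brightest *Gapdh* probes it was 0.09. Over 4027 genes with at least 2 tested probes the median SD of the difference between the 2 brightest was 0.22.

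The other *Tbp* probe, A_51_P461828, did not share the steadiness of the brighter one. It gave -2.21, -2.54, -2.44 and -2.72 in the wt group and -2.44, -2.23, -1.82 and -2.60 in the het group, with an SD of 0.28 and again its extreme, here the highest value, in het replicate 3. Its SD was 0.17 without the pair of arrays. Its 10 spots on an array had a median SD of 0.09. The SD of the difference from the brighter *Tbp* probe was 0.28, and the 2 probes lay on the same side of their means in 5 of 8 embryos.

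The 3 *Ywhaz* probes differed most. The dimmest, A_66_P120770, was designed on another RefSeq transcript of the gene than the other 2. It gave 0.33, 0.61, 1.21 and 0.40 in the wt group and 0.65, 1.00, 0.26 and 1.01 in the het group. It was lowest in the 3 embryos in which the probe that stands for the gene was highest. The 2 probes shared a side in 2 of 8 embryos, and the SD of their difference was 0.60. The probe A_52_P225260 shared a side with A_66_P120770 in 1 embryo (SD of the difference 0.53) and with the brightest in 5 (0.35). When the probes of a gene were averaged, the SD of *Ywhaz* fell from 0.28 to 0.06, while that of *Tbp* went from 0.05 to 0.15 and that of *Gapdh* from 0.11 to 0.13. The place of *Tbp* as the steadiest gene thus rested on the choice of probe. Each *Ywhaz* probe by itself had an SD between 0.24 and 0.35, and their average varied little because they deviated in opposite directions.

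**Figure D4:**
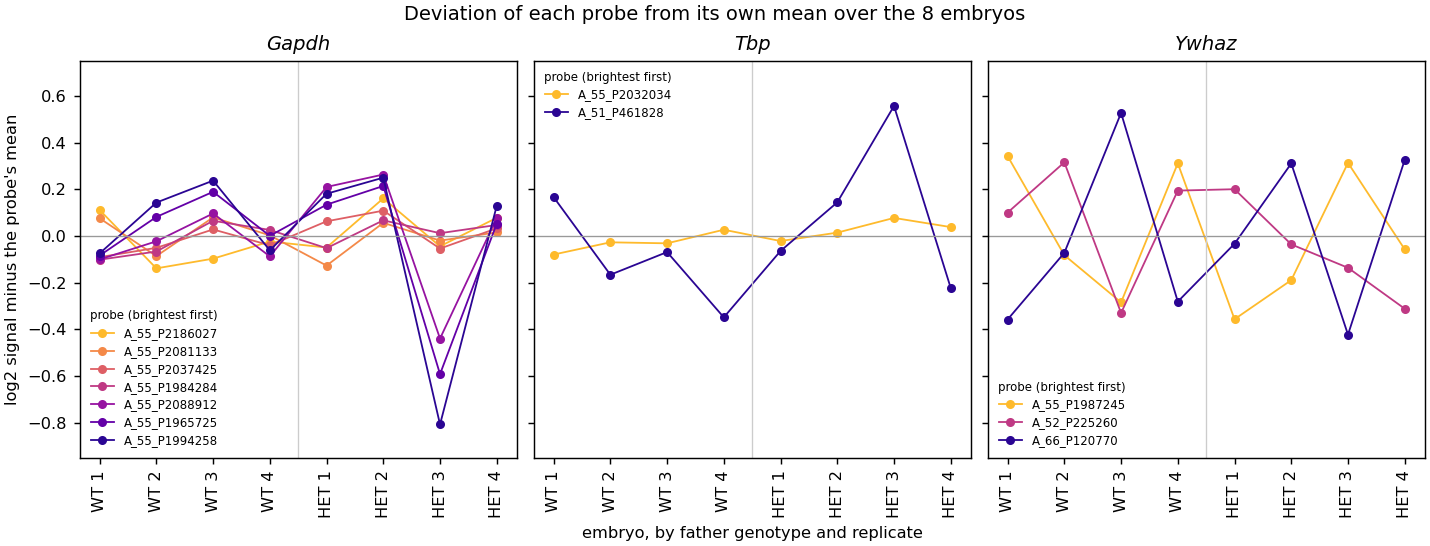
Log2 signal of every *Gapdh*, *Tbp* and *Ywhaz* probe minus that probe's mean over the 8 embryos, by embryo, with the wt group left and the het group right of the grey line. In het replicate 3 the 3 dimmest *Gapdh* probes dropped and the dim *Tbp* probe peaked, and the *Ywhaz* probes crossed.

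Between the het and the wt group none of the 8 genes was called, at a limma adjusted p (Benjamini-Hochberg over all 33093 probes) under 0.01 and at least 2-fold. Across all tested probes 0 were called either (0%), and 1440 (4.35%) had an unadjusted p under 0.05. None of the 8 genes reached an unadjusted p of 0.05, the smallest being 0.384 for *Tbp*, nor did any of the 17 probes. The groups overlapped for all 8 genes, whereas they did not for 1047 of all tested probes (3.16%). The median log2 difference of the 8 was 0.02, against -0.00019 over all tested probes.

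The differences were small but the intervals differed in width. For *Tbp* the means were 1.38 ± 0.04 (SD, n = 4) in the wt and 1.44 ± 0.04 in the het group, a fold of 1.04 with a 95% interval of 0.944 to 1.14. For *Sdha*, *Canx*, *Gapdh*, *Actb* and *Hprt* the fold lay between 0.995 and 1.05, with intervals inside 0.859 to 1.21. For *Ywhaz* the means were 1.54 ± 0.31 and 1.40 ± 0.28, and the interval of the fold was 0.660 to 1.24. For *B2m* they were 2.79 ± 0.58 and 2.54 ± 0.26, and the interval was 0.525 to 1.34. The log2 difference of *B2m*, -0.25, was -0.50 without wt replicate 1 and -0.09 without wt replicate 2, and also moved by over 1.5 times without wt replicate 3 (-0.10) or het replicate 4 (-0.12). That of *Ywhaz*, -0.14, ran from -0.27 without het replicate 3 to -0.05 without het replicate 1. With the first part of the embryo code as a random block, the difference of *B2m* was -0.09 and the interval of its fold 0.526 to 1.67, and the interval of *Ywhaz* was 0.571 to 1.32. With this block the intervals of the 6 genes with the lowest SDs lay inside 0.827 to 1.27, both limits being those of *Canx*. Without the block their intervals ended at 1.21-fold, and that of *B2m* reached down to 0.525-fold. The limma adjusted p was 1.00 for each.

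Female and male embryos, compared with father's genotype in the fit, did not differ in any of the 8 genes by the same rule (limma adjusted p 1.00 for each), and the smallest unadjusted p was 0.143, for *Gapdh*. Over all tested probes 11 were called (0.0332%), 1081 had an unadjusted p under 0.05 (3.27%), and the sexes did not overlap for 855 (2.58%). They overlapped for all 8 genes. X-linked *Hprt* was 4.42 ± 0.09 in females and 4.36 ± 0.10 in males (SD, n = 4), a difference of 0.06 with a 95% interval of -0.15 to 0.26. Of the other probes of these genes, 1 of *Gapdh*, A_55_P2081133, gave 8.10 to 8.16 in the 4 females and 7.96 to 8.08 in the 4 males without overlap (log2 difference 0.11, unadjusted p = 0.115 in limma). With an interaction in the fit, no difference between the sexes in the effect of father's genotype was called for any of the 17 probes (smallest unadjusted p 0.119, limma adjusted p 0.996).

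**Figure D5:**
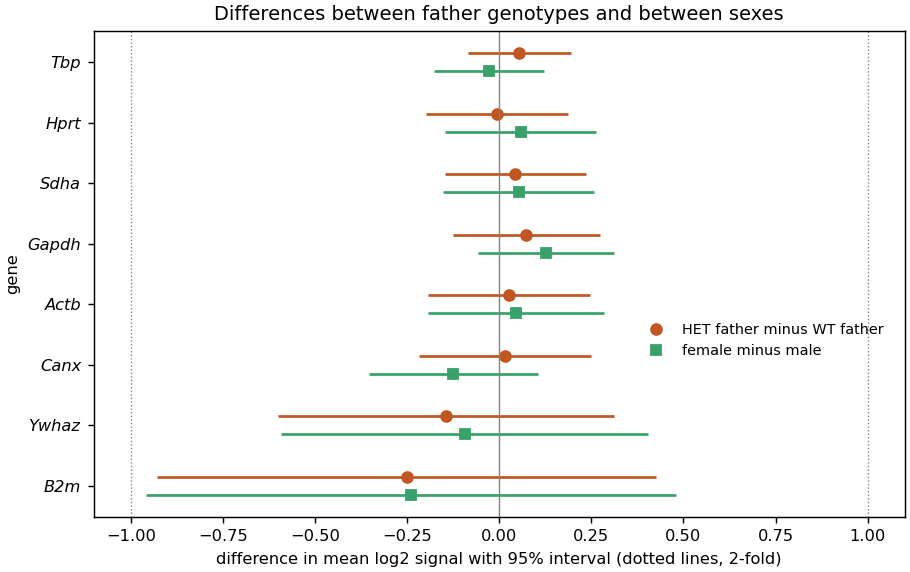
Difference in mean log2 signal between father genotypes (circles) and between sexes (squares) for each reference gene, with 95% intervals from limma; dotted lines mark 2-fold. All 16 intervals included 0 and none reached 2-fold.

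The deviation of the mean of the 8 genes from its own mean ran from -0.08 to 0.05 over the embryos, an SD of 0.05, and it was 4.70 ± 0.05 in the wt and 4.67 ± 0.05 in the het group (SD, n = 4). To see what the choice of a reference would do, all probes were rescaled by each gene in turn. No probe was called between father genotypes by any of these scalings. The number of probes at an unadjusted p under 0.05, 661 higher and 779 lower with the 75th percentile, became 820 and 605 with the mean of the 8 genes. *Tbp* alone gave 255 higher and 1471 lower, and *Gapdh* 151 and 1194.

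With *B2m* alone as the reference, 195 probes were higher and 40 lower, and with *Ywhaz* 477 and 160. These scalings raised the log2 difference of every probe by 0.25 and 0.14. They also raised the median SD of all tested probes from 0.22 to 0.50 and 0.34, whereas *Tbp* left it at 0.22 and the other 5 genes at 0.23 to 0.25. Scaling by a gene moves the difference of every probe by that gene's own difference with its sign turned, so these shares of higher and lower probes follow from the values of the genes above.

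Other reference genes in common use had spreads of the same order. Of 17 listed, 16 were tested, and 13 of them had an SD below the median of all tested probes (median SD 0.12, median log2 difference 0.06 between father genotypes). The lowest SD was that of *Atp5b*, a subunit of ATP synthase, at 0.07. *Eef1a1*, a translation elongation factor, was the 1 gene of the list with an unadjusted p under 0.05 between father genotypes (log2 difference 0.21, unadjusted p = 0.0278, limma adjusted p 1.00), and none had one between sexes.

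Genes that work with the 8 were listed by partner. Of 33 listed, 29 were tested, and 25 had an SD below the median of all tested probes (median SD 0.10, median log2 difference 0.02). None was called between father genotypes or sexes. The 6 other members of the *Ywhaz* family had a median SD of 0.09, with *Sfn*, a member typical of epithelia, highest at 0.35. The partners of *B2m* and *Canx* in MHC class I assembly had the highest median SD, 0.19 over 5 tested genes, with *Calr*, the soluble chaperone calreticulin, at 0.31. The class I heavy chain genes *H2-K1* and *H2-D1*, whose products pair with that of *B2m*, had SDs of 0.14 and 0.19, below the 0.44 of *B2m* itself. These medians of lists are not matched for brightness. The medians of their own deciles were 0.16 for *H2-K1* and 0.18 for *H2-D1*. *Tapbp* had 0.11 against 0.21, whereas *Calr* and *Pdia3* (0.24) lay above the 0.10 of theirs.

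The other lists of partners had lower median SDs, again not matched for brightness. The 4 partners of *Sdha* had a median SD of 0.09, the 3 of *Actb* and the 3 of *Hprt* 0.10 each, the 3 of *Gapdh* 0.12 and the 5 of *Tbp* 0.10. The lowest SD of all was that of *Tbpl1*, a relative of *Tbp*, at 0.05. Between father genotypes *Tpi1*, a glycolytic enzyme, had a log2 difference of 0.22 (unadjusted p = 0.0245), and *Taf5*, a subunit of the complex that holds the TATA-binding protein, one of -0.38 (unadjusted p = 0.00578), with limma adjusted p 1.00 for both. Between sexes *Taf4* and *Taf5*, of the same complex, had log2 differences of -0.17 (unadjusted p = 0.0400) and -0.19 (unadjusted p = 0.0378), female minus male, again with limma adjusted p 1.00. These 2 of 29 in either comparison stand beside 4.35% and 3.27% of all tested probes.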

How the data were processed

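RNA of 8 whole E8.5 embryos was hybridised to one-colour arrays. The authors read the scans with Agilent Feature Extraction (version 11.0.1.1). Their deposited intensity for a spot has the background subtracted and spatial trends removed and is not scaled between arrays. The deposited flag columns, which have other units (0 or 1), mark outlier spots, saturation and signal well above background. The percentile of the study's percentile shift and its test are not given in the sources used here. After control spots and spots flagged as outliers had been dropped, log2 intensities were averaged over the spots of a probe and set relative to the array's 75th percentile. A probe entered the fit if its mean exceeded that of the lowest 20% and at least 4 arrays showed it well above background. The fits used limma 3.58.1 (R 4.3.3, the data.table package, version 1.17.8), which was checked on simulated data, and the figures matplotlib 3.10.9, pandas 2.3.3 and numpy 2.4.6. Symbols came from a GRCm38.p6 table through the RefSeq accession (27235 of 28685 such probes matched), which was used for names only, since the arrays were designed on mm9.

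The 8 genes, the lists of other reference genes, partners and cell markers, and the tests were chosen with earlier results of these data known. The probe that stands for a gene is its brightest tested probe without saturation. From the lists the text names the genes with the lowest and the highest SD and those with an unadjusted p under 0.05 (some genes this rule includes are not reported here), and *Calr*, *H2-K1* and *H2-D1* were added after their values were seen. The number of arrays limits the precision. Alternatives were other normalizations, scaling by reference genes, other filters and probe choices, sex, replicate number or embryo code in the fit, other moderation, array weights, and each embryo left out. The deposited intensity values of the whole series in one file, with 0 sample columns unused, served as an alternative. Leaving out both arrays that stood apart was added after seeing the data.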

Additional observations from a re-analysis of the deposited data

Results flagged for a closer look

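Of 36 groups of 4 embryos examined, 18 items in each father group, 1 held an embryo far from the others, where chance gives about 1.8. For the dimmest *Gapdh* probe, A_55_P1994258, in the het group, the gap between replicate 3 (4.36) and its nearest neighbour (5.30) was 0.886 of the group's whole range, above the Dixon limit for 4 samples.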

How the results depend on the processing

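None of the 8 reference genes was called between father genotypes or sexes under any alternative run. The number of probes called between fathers was 0, except 1 without the pair of arrays that stood apart, and 0 to 1 with 1 embryo left out (1 without wt replicate 1 or het replicate 4). Calls between sexes went from 11 to 5 without the filter on dim probes, to 0 among probes well above background on all arrays and to 4 to 9 with 1 embryo left out (9 without het replicate 3, 7 or fewer without any other). The median SD of the 8 genes was 0.45 with a shift by the median and 0.10 to 0.12 with 1 embryo left out.

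Differences between fathers near 0 changed sign. *Canx* became -0.052 with normexp and quantile normalization, -0.088 with the median shift, -0.051 with array weights and -0.065 without the pair of arrays. *Gapdh* became -0.0022 (normexp and quantile), -0.029 (median shift) and -0.0015 (mean of its probes), and *Actb* -0.018 (normexp and quantile), -0.076 (median shift) and -0.019 (quantile normalization). *Sdha* became -0.059 and *Tbp* -0.048 with the median shift. *Hprt* became 0.0086 with embryo code as a random block, 0.014 with array weights and 0.022 without the pair of arrays. With 1 embryo left out *Canx* ran from -0.034 to 0.061, *Actb* from -0.030 to 0.081 and *Hprt* from -0.057 to 0.046. The cause was not tested.
Probes at an unadjusted p under 0.05 went from 1440 to 2596 with normexp and quantile normalization, 478 with the median shift, 5333 without the filter, 3043 with array weights, 685 with the embryo code as a block, 2340 without the pair of arrays and 3099 without het replicate 3. Replicate numbers did not pair the embryos (correlations of deviations -0.59 to -0.05, and no embryo correlated best with its own number). The replicate block gave 874 such probes and changed no call of the 8 genes.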

Other observations

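Among 14034 other genes whose probe was well above background and unsaturated on all 8 arrays, the 3 whose signal followed the mean of the 8 reference genes most closely were *Polr2m*, *Pard6g* and *Srrm1*, with an SD of the log2 difference from that mean of 0.02 each over the 8 embryos. *Tbp*, which is itself part of the mean, had 0.05. By the SD of the signal itself over the 8 embryos, 280 of these other genes (2.00%) varied less than *Tbp*. For *Hprt* and *Sdha* 19.9% and 21.0% of the genes had a lower SD, for *Gapdh*, *Actb* and *Canx* 27.3% to 37.3%, for *Ywhaz* 80.8% and for *B2m* 92.7%. These shares are not matched for brightness, and *Gapdh*, *Actb* and *Canx* had SDs above the median of their own decile.

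The 5 genes with the lowest SD over the 8 embryos were *Tomm5*, a subunit of the mitochondrial import pore, at 0.01, and *Scrib*, a cell polarity protein, *Wbp11*, a splicing factor, *Ftsj1*, an X-linked RNA methyltransferase, and *H2-Ke6*, each at 0.02. *Tomm5* ran from 6.13 to 6.16. These genes were picked for their low spread among many, and the values are descriptions of these arrays.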
